A study of Saccharomyces cerevisiae with 6 samples.

Results

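Lipoic acid is a sulfur-containing cofactor that is built on its carrier proteins in mitochondria. Bound to a lysine, it forms a swinging arm that passes intermediates between the active sites of the pyruvate dehydrogenase complex, the 2-oxoglutarate dehydrogenase complex and the glycine cleavage system. Pyruvate dehydrogenase makes acetyl-CoA from pyruvate inside mitochondria, and the glycine cleavage system splits glycine and delivers a one-carbon unit to folate.

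Signals of 10 yeast genes of this system were examined on 6 single-colour oligonucleotide arrays. The genes were LIP2 and LIP5, which make protein-bound lipoate, PDA1, PDB1, LAT1, PDX1 and LPD1 of pyruvate dehydrogenase, and GCV1, GCV2 and GCV3 of glycine cleavage. They were chosen by gene symbol, with the signals and mutant to wild-type differences of these same arrays already known. Their own differences are therefore described without p-values, and nothing is read from whether they were called. Each of the 10 had 1 probe set matched to that gene alone, and none of these carried a mark of shared sequence in its name. They are 10 of 5656 genes that could be assigned a probe set, and all 10 were among the 4525 that passed the filter on dim signals.

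The arrays came from 3 wild-type samples and 3 samples of a Saccharomyces cerevisiae strain labelled as mutant for histone H2B at residues 3-32, a stretch of the amino-terminal tail. Cells of all 6 samples were grown in rich medium (YPD) to mid-log phase, at an optical density of 0.5 to 0.7. The design asks which transcripts differ between mutant and wild type. The wild-type sample of replicate 3 is labelled as the control of other H2B mutants as well. The labels give neither the strain background nor how the altered H2B gene is carried, and they do not say whether replicates were separate cultures, so their spread may be technical.

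HTB1, an H2B gene, separated the groups as labelled. Its intensity was 1371.8, 1138.4 and 1191 on wild-type arrays 1, 2 and 3 and 16.1, 19.4 and 15.2 on the mutant arrays. The place of its probes within the gene is unknown here, so a loss of signal need not mean a loss of the whole transcript. The labels name no mating type. All 6 marker genes of a cells passed the filter on dim signals, and of 4 marker genes of alpha cells SAG1 alone did, while STE3, the receptor made by alpha cells, lay between 3.4 and 6.5. The arrays of replicate 3 stood apart from the other 4 in both groups, with a median intensity over all probe sets of 40.1 and 40.5 against 28.9 to 31.2. Spiked hybridisation controls averaged 102 and 98.8 on them against 345 to 455 on the others. Each gene is therefore given on every array, and differences are taken within same-numbered pairs as log2(intensity + 2.7), mutant minus wild type.

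The 3 GCV genes shared a sign in every pair, while the genes of lipoate synthesis or of pyruvate dehydrogenase did not. Signals of GCV1, GCV2 and GCV3 were higher in the mutant in every pair. LIP2 and PDX1 were lower in every pair by about the same amount as each other. The other 5 genes had pair differences of both signs, among them LPD1, which glycine cleavage shares with the other complexes. With the pairs as numbered, an equal sign in all 3 pairs was thus seen in 5 of 10 genes, against 38.9% of all genes tested. The data do not tell replicates 1 and 2 apart by number. With these exchanged in the mutant, PDA1 would be higher and PDB1 lower in every pair. Over all genes tested, 11.5% were higher in all pairs and 27.4% were lower. The median difference of the 10 genes was -0.09, against -0.06 over all genes.

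**Figure D1:**
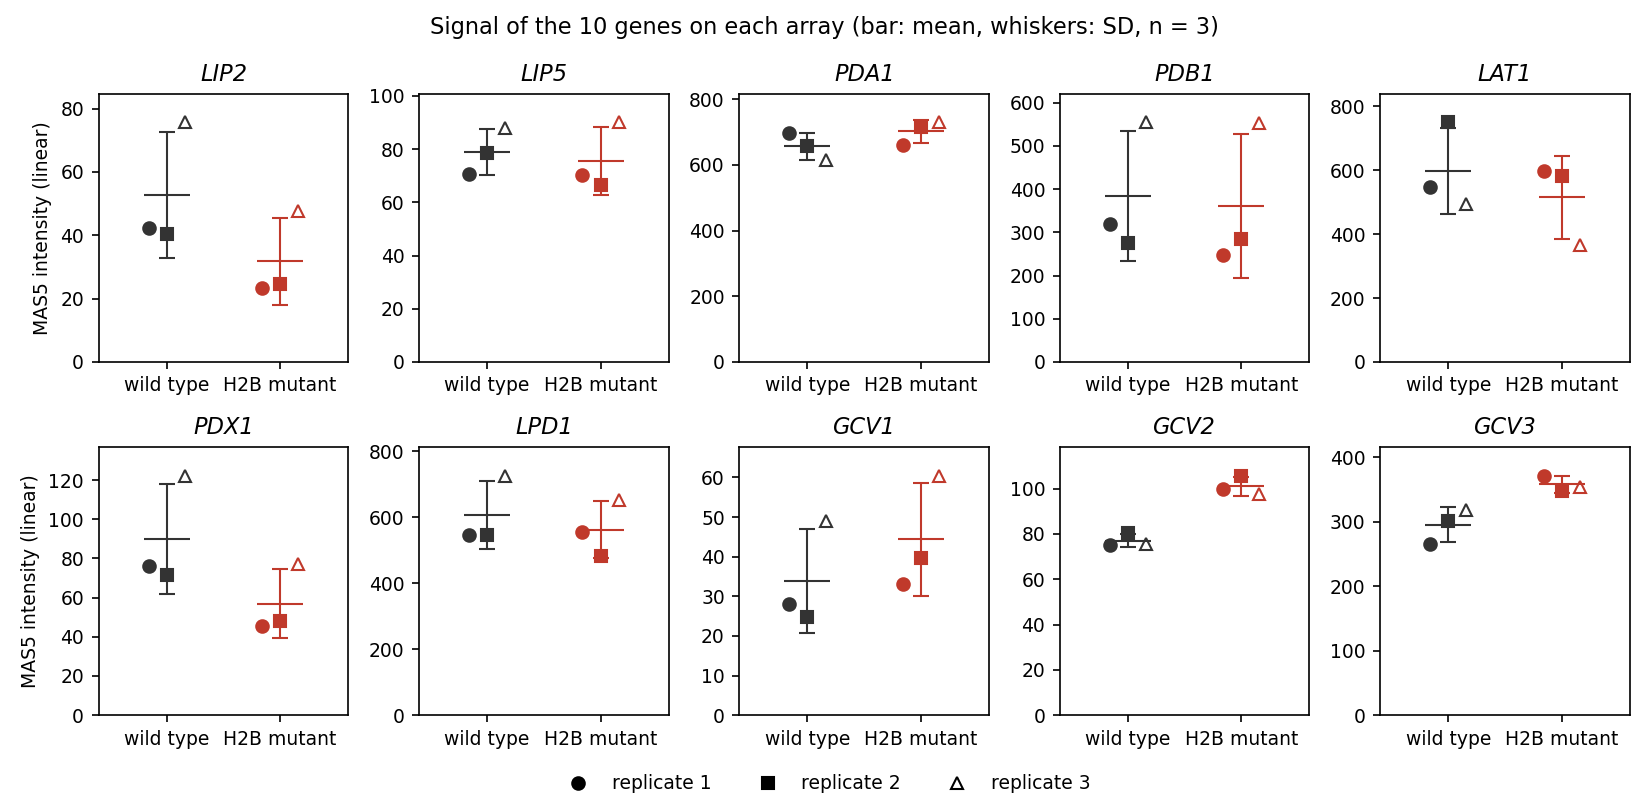
MAS5 intensity on a linear axis starting at 0 for each of the 10 genes, with circles, squares and open triangles for replicates 1, 2 and 3, a horizontal bar for the mean and whiskers for the SD (n = 3). Replicate 3 lies above replicates 1 and 2 in both groups for LIP2, LIP5, PDB1, PDX1, LPD1 and GCV1 and below them for LAT1, and only GCV2 and GCV3 have groups that do not overlap.

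LIP2 (YLR239C) encodes the octanoyltransferase that starts lipoate assembly by moving an octanoyl group from the mitochondrial acyl carrier protein to a target protein. Its intensity was 42.3, 40.4 and 75.7 on wild-type arrays 1, 2 and 3 and 23.2, 24.7 and 47.7 on the mutant arrays. Each mutant array was below its same-numbered wild-type array, but the groups overlapped because mutant array 3 exceeded wild-type arrays 1 and 2. Mutant signal was 54.8%, 61.1% and 63.0% of wild type in pairs 1, 2 and 3. The mean log2 difference was -0.70 (SD of the 3 pairs 0.09), and 11 of the 4525 genes had a lower mean difference.

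LIP5 (YOR196C) encodes lipoate synthase, the iron-sulfur enzyme that inserts sulfur into the octanoyl chain. Its intensity was 70.7, 78.6 and 87.9 in wild type and 70.1, 66.6 and 90.1 in the mutant. The groups overlapped throughout, and the pair differences were -0.01, -0.23 and 0.03, with a mean of -0.07 (SD of pairs 0.14). The LIP2 difference less the LIP5 difference was negative in each pair, at -0.79, -0.42 and -0.67.

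PDX1 (YGR193C), also lower in every pair, encodes the protein that anchors the shared dehydrogenase Lpd1 to the core of pyruvate dehydrogenase. Its intensity was 75.9, 71.4 and 122.3 on wild-type arrays 1, 2 and 3 and 45.3, 48.1 and 77 on the mutant arrays. As for LIP2, the groups overlapped only through array 3 of the mutant, which lay above 2 wild-type arrays. Mutant signal was 59.7%, 67.4% and 63.0% of wild type by pair, a mean log2 difference of -0.64 (SD of pairs 0.08), and 19 of the 4525 genes had a lower mean difference.

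The other subunits of the same complex did not share this difference. PDA1 (YER178W), the alpha subunit of the decarboxylating E1 component, had intensities of 696.5, 659.1 and 615.5 in wild type and 661.9, 715.4 and 730.2 in the mutant. These ranges overlapped, and the mean log2 difference was 0.10 (SD of pairs 0.16). PDB1 (YBR221C), the beta subunit that pairs with Pda1, gave 319.8, 275.9 and 554.7 in wild type and 247.2, 283.8 and 552.2 in the mutant. Its level on array 3 was far above that on arrays 1 and 2 in both groups, while the mean difference between groups was -0.11 (SD of pairs 0.22).

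LAT1 (YNL071W) encodes the E2 core, a subunit of this complex to which lipoate is bound. Its intensity was 549.2, 750.6 and 494.7 in wild type and 597.1, 583.5 and 364.7 in the mutant. The mutant array was higher in pair 1 and lower in pairs 2 and 3, for a mean log2 difference of -0.23 with an SD of pairs of 0.30, the widest of the 10 genes. LPD1 (YFL018C), the dihydrolipoamide dehydrogenase shared by all 3 lipoate-dependent systems, gave 547.4, 547.5 and 726.7 in wild type and 554.1, 481.2 and 652.2 in the mutant. Its groups overlapped as well, with a mean difference of -0.11 (SD of pairs 0.11). Of the 5 genes of the complex, the 4 other than PDX1 thus had mean differences between -0.23 and 0.10. With the pairs as numbered, each was smaller in size than its own SD of pairs, LPD1 only just (-0.1077 against 0.1095). That SD depends on the numbering of replicates 1 and 2, which the data do not tell apart.

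**Figure D2:**
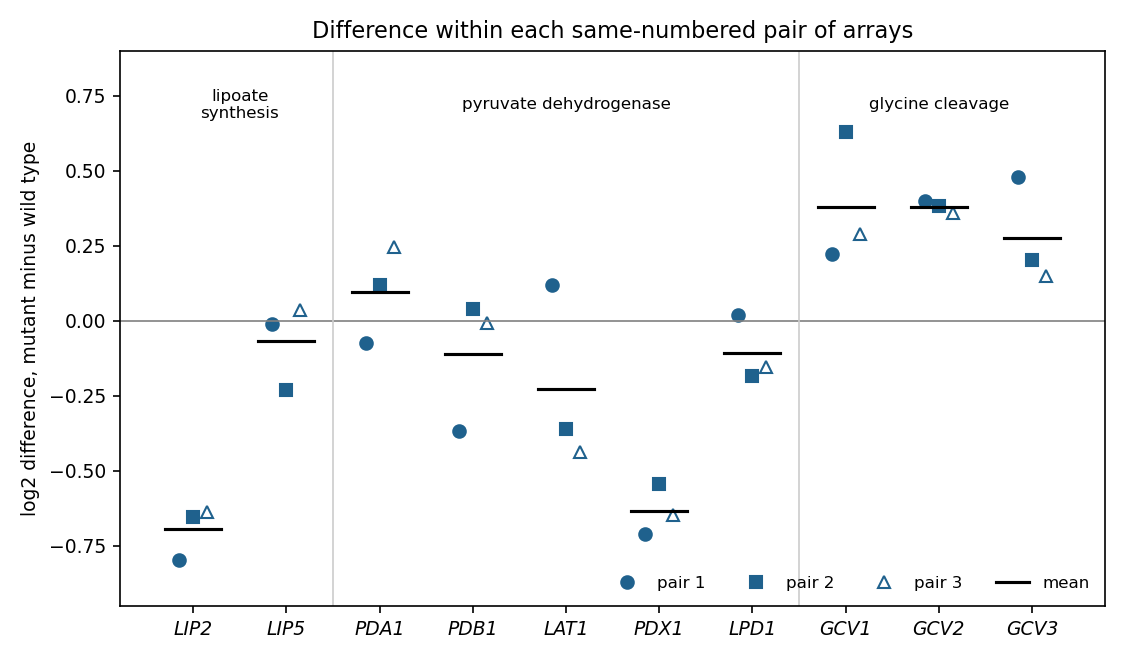
Log2 difference, mutant minus wild type, within each same-numbered pair of arrays (symbols) and the mean of the 3 pairs (line) for the 10 genes, grouped by role. LIP2 and PDX1 lie between -0.80 and -0.54 in all pairs, GCV1, GCV2 and GCV3 between 0.15 and 0.63, and the other 5 genes lie on both sides of 0.

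GCV1, GCV2 and GCV3 were higher in the mutant, while LPD1, which glycine cleavage also uses, had a mean difference of -0.11. GCV2 (YMR189W) encodes the P protein, which decarboxylates glycine, and with the pairs as numbered it was the most even of the 3. Its intensity was 75.1, 80.5 and 75.5 in wild type and 99.9, 105.8 and 97.5 in the mutant. The groups did not overlap, and mutant signal was 133%, 131% and 129% of wild type in pairs 1, 2 and 3. The mean log2 difference was 0.38 (SD of pairs 0.02), with the pairs as numbered the smallest spread of the 10 genes. That rank depends on the numbering of replicates 1 and 2, which the data do not tell apart.

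GCV3 (YAL044C) encodes the H protein, which carries the lipoyl arm of the system and in yeast also takes part in handing lipoate on to the other complexes. Its intensity was 265.8, 301.4 and 318.4 in wild type and 371.4, 347.3 and 353.7 in the mutant, again without overlap. The mean log2 difference was 0.28 (SD of pairs 0.18), with pair 1 at 0.48 and pair 3 at 0.15. GCV1 (YDR019C), the T protein that passes the one-carbon unit to tetrahydrofolate, had a low signal, at 28, 24.7 and 49 in wild type and 33.1, 39.7 and 60.5 in the mutant. Its groups overlapped through wild-type array 3, and the mean difference was 0.38 (SD of pairs 0.22). Mean differences above those of GCV1, GCV2 and GCV3 were found for 88, 89 and 217 of the 4525 genes.

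Groups that did not overlap were seen for 2 of the 10 genes, GCV2 and GCV3, against 7.65% of all genes tested (2.65% higher and 4.99% lower in the mutant). When arrays 1 and 2 were set against each other without regard to number, and array 3 against array 3, 5 of the 10 genes were apart in 1 direction, LIP2 and PDX1 lower and the 3 GCV genes higher. The same held for 31.6% of all genes tested, 9.02% higher and 22.6% lower, so such a pattern is common on these arrays. The signs of these 5 genes did not turn in any pair when the arrays were normalized to common quantiles or to a common median.

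The shift of replicate 3 was larger than the group difference for most of these genes. Array 3 was compared with the mean of arrays 1 and 2 of its own group on the log2 scale, on which the median over all tested genes was 0.27 in wild type and 0.31 in the mutant. PDB1 was higher by 0.89 in wild type and 1.05 in the mutant, LIP2 by 0.83 and 0.92, GCV1 by 0.83 and 0.70, and PDX1 by 0.71 and 0.69. LAT1 went the other way, with -0.37 and -0.69. GCV2 hardly differed between arrays, with -0.04 and -0.07. In both groups this shift exceeded the mutant difference in size for 7 of the 10 genes, the exceptions being PDA1, GCV2 and GCV3. Its part in the results was not tested. Within replicates 1 and 2 alone the mean mutant differences were -0.73 for LIP2, -0.63 for PDX1, 0.43 for GCV1, 0.39 for GCV2 and 0.34 for GCV3.

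**Figure D3:**
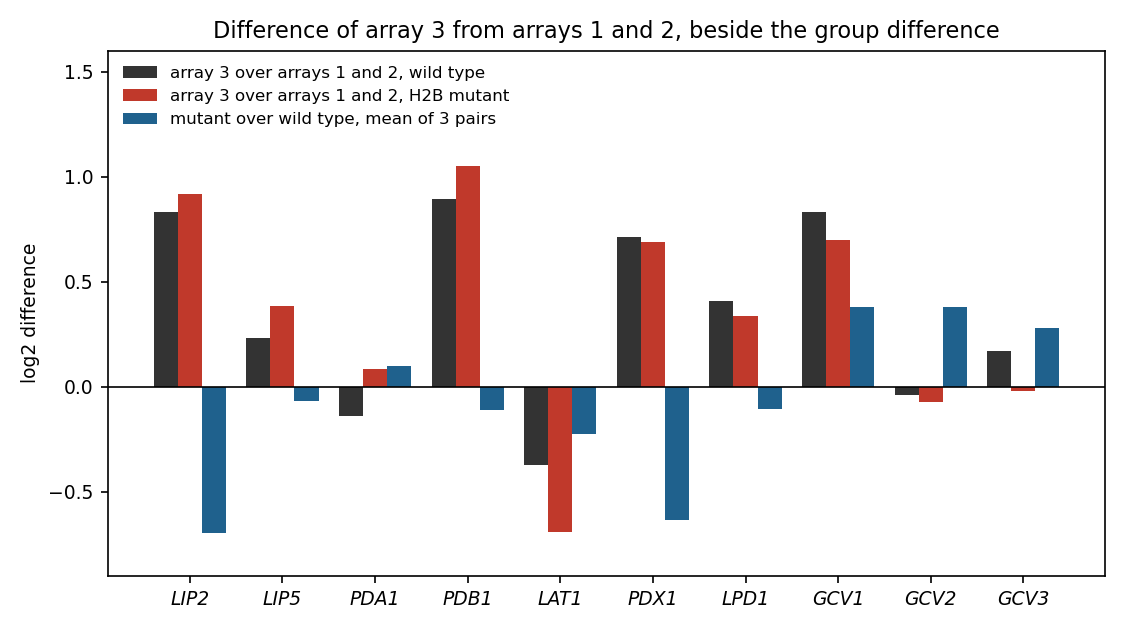
Bars give log2 differences from 0 for each gene: array 3 over the mean of arrays 1 and 2 in wild type (dark) and in the H2B mutant (red), and the mean mutant minus wild-type difference of the 3 pairs (blue). The array 3 bars of LIP2, PDB1, PDX1 and GCV1 lie between 0.69 and 1.05 in both groups, and the blue bars are negative for LIP2 and PDX1 and positive for the 3 GCV genes.

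Across all 4525 genes, limma (two-sided, Benjamini-Hochberg, adjusted threshold 0.05) called 1 gene, HTB1, or 0.0221%, when the fit held the group alone. With the replicate number as a block it called 103 genes, or 2.28%. None of the 10 genes was called in the first fit. In the second, LIP2 and PDX1 were among the genes called lower (1.39% of all genes tested) and none of the 10 was among those called higher (0.884%). The 10 genes were chosen with this contrast known, so nothing is read from these counts. Without pair 2 or without pair 3, 0 of the 10 were called, while the calls over all genes dropped to 12 higher and 13 lower, and to 8 higher and 7 lower. The mean differences in those fits were -0.72 and -0.73 for LIP2 and -0.68 and -0.63 for PDX1, about as large as with all pairs. Without pair 1 the calls were LIP2, PDX1 and LAT1, while the calls over all 4525 genes rose to 71 higher and 136 lower.

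Genes that act next to these 10 were followed in 9 lists holding 48 genes, of which 38 were tested. With the group alone 0 of 38 passed, and with the block 1 fell, 0 rose and 37 did not pass. The block called 2.28% of all genes tested, 1.39% lower and 0.884% higher, so 1 call among 38 is close to that share. Their median log2 difference was -0.07, close to the -0.06 of all genes. For the rest of this account, fell and rose refer to the fit with the block, and each SE is from that fit.

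The gene that fell was ISA1, which encodes a mitochondrial protein needed to assemble the iron-sulfur clusters of enzymes such as lipoate synthase. Its intensity was 94.4, 115.6 and 128.2 on wild-type arrays 1, 2 and 3 and 75.6, 74.3 and 93 on the mutant arrays, so each mutant array was below all wild-type arrays. The log2 difference was -0.46 ± 0.11 (SE; limma adjusted p = 0.0469 with the block and 1.00 with the group alone), and it was lower in 3 of 3 pairs. ISA1 was not called without pair 2 or without pair 3, with log2 differences of -0.38 and -0.46 there, nor with no filter on dim genes (limma adjusted p = 0.0606 with the block). The other 5 genes of this iron-sulfur list did not pass. All 6 had negative differences, as had 2853 of the 4525 genes tested, with a median of -0.11 against -0.06 over all genes. They include IBA57, a partner of Isa1, at -0.35 (limma adjusted p = 0.242).

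The octanoyl chain that LIP2 uses comes from mitochondrial fatty acid synthesis. Of 8 listed genes 4 were too dim to be tested, and 0 of the other 4 passed (median -0.07). MCT1, the malonyl transferase of the pathway, had a log2 difference of -0.20 (limma adjusted p = 0.431) and HFA1, the mitochondrial acetyl-CoA carboxylase, of -0.19 (limma adjusted p = 0.492). ACP1, the acyl carrier protein on which the chain is built, was at 0.05. The gene for the third lipoate factor of yeast, LIP3, listed in the reference as AIM22, was left out as dim, with 14.7, 12.8 and 17.9 in wild type and 13, 11 and 17.1 in the mutant.

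In 2-oxoglutarate dehydrogenase, the other large complex with a lipoyl arm, 0 of 3 genes passed (median -0.24). KGD4, which joins Lpd1 to this complex as Pdx1 does in pyruvate dehydrogenase, had intensities of 59.9, 51.5 and 109.8 in wild type and 34, 40.3 and 88 in the mutant. It was lower in 3 of 3 pairs, with a log2 difference of -0.47 ± 0.13 (SE; limma adjusted p = 0.0799 with the block). KGD1, the E1 component, was at -0.24 (limma adjusted p = 0.242), and KGD2, the lipoate-bearing E2, at 0.05.

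The kinases and phosphatases that switch pyruvate dehydrogenase off and on had 0 of 4 genes passing (median -0.17). The lowest were the phosphatase genes PTC6 and PTC5, both at -0.20 (limma adjusted p = 0.516 and 0.466). Of the 3 genes of the mitochondrial pyruvate carrier, 2 were tested and 0 passed. MPC2 did not overlap between groups, at 508.6, 565.2 and 634.2 in wild type and 656.3, 637.8 and 666.4 in the mutant (log2 0.20, limma adjusted p = 0.297), while its partner MPC1 was at -0.22 (limma adjusted p = 0.343). Of the 38 related genes tested, groups did not overlap for 1 that was higher (MPC2) and 2 that were lower (PTC6 and ISA1). The shares over all genes tested were 2.65% higher and 4.99% lower. MPC3, the carrier subunit made in respiring cells, was left out as dim. It gave 2, 2.3 and 10 in wild type and 10.4, 8.6 and 22 in the mutant, higher in 3 of 3 pairs but at signals near the offset. With no filter on dim genes it was called higher with the block.

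Yeast can also reach acetyl-CoA outside the complex, through pyruvate decarboxylase, aldehyde dehydrogenase and acetyl-CoA synthetase. Of 8 listed genes 7 were tested and 0 passed (median 0.05). PDC5, a minor pyruvate decarboxylase, was at 0.31 (limma adjusted p = 0.135) and was higher in 3 of 3 pairs, and ACS2, the acetyl-CoA synthetase used on glucose, was at -0.10 (limma adjusted p = 0.628).

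Among other genes of glycine and serine metabolism 0 of 7 tested passed (median -0.04). SHM1 and SHM2, the serine hydroxymethyltransferases that interconvert serine and glycine in mitochondria and cytosol, were at -0.02 and 0.08. GLY1, the threonine aldolase that makes glycine, was at -0.17 (limma adjusted p = 0.353), and SER3, an enzyme of serine synthesis, at -0.37 (limma adjusted p = 0.297) with an SE of 0.18. AGX1, which makes glycine from glyoxylate, was too dim to be tested.

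Among regulators, 0 of 5 tested genes passed (median -0.19). GCN4 and BAS1 encode activators of amino acid and GCV genes, and were at -0.19 and -0.04. HAP4 and HAP2 encode subunits of the Hap complex, the activator of respiratory genes and of LPD1. HAP4 was at -0.51 (limma adjusted p = 0.0623), with 127.8, 175.8 and 72.3 in wild type and 98.4, 89.5 and 61.7 in the mutant, and HAP2 at -0.42 (limma adjusted p = 0.14). Both were lower in 3 of 3 pairs, and the groups overlapped.

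**Figure D4:**
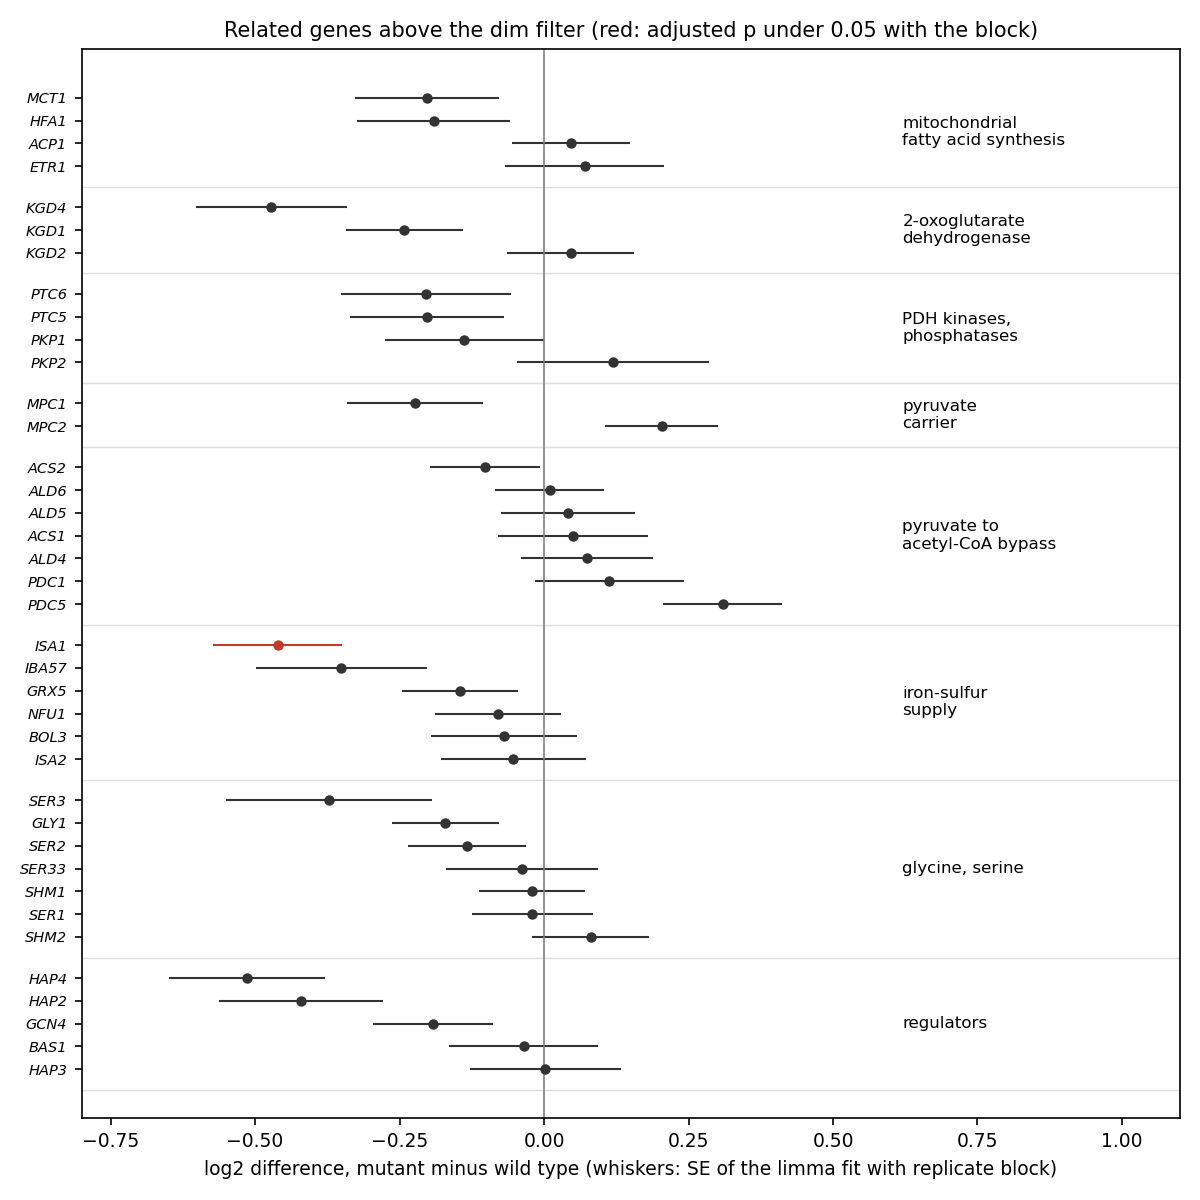
Log2 difference, mutant minus wild type (horizontal axis), for the 38 tested genes of the related lists, with whiskers for the SE of the limma fit with the replicate block. ISA1, in red at -0.46, is the gene that passed, HAP4 at -0.51 and KGD4 at -0.47 lie lower with wider whiskers, and PDC5 at 0.31 is the highest.

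For each of the 10 genes, the tested gene with the most similar log2 profile was found by Pearson's r over the 6 arrays. These values are the highest among the 4525 genes tested and the arrays of replicate 3 form a cluster of their own, so they describe the arrays only. PDX1 was most like TAZ1, the cardiolipin acyltransferase tafazzin (r = 0.9995). TAZ1 gave 38.9, 34.9 and 74.9 in wild type and 19.1, 20.3 and 38.7 in the mutant, lower in every pair and raised on array 3 as PDX1 was. LIP2 was most like IMP1, a peptidase of the inner mitochondrial membrane (r = 0.9987), which gave 50.1, 50.2 and 66 in wild type and 37.8, 39.5 and 53.7 in the mutant. The nearest genes were DET1 for PDB1, LEU5 for LPD1, GDB1 for LIP5, CIS3 for LAT1 and SNF12 for PDA1 (r from 0.955 to 0.9988). CMI8, PEX31 and the retrotransposon gene YGR109W-B, whose probe set may share signal with its relatives, were nearest to GCV1, GCV3 and GCV2, with r between 0.989 and 0.991.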

How the data were processed

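The authors' deposited values are linear intensities. MAS5 is named as their tool, per the submitters' processing notes, without version, settings or detection calls. The deposited columns had 2% trimmed means of 125.1 to 125.2 and were not rescaled. Of 9335 probe sets, 60 controls, 328 with several genes and 2443 with none in the platform's gene table were left out. All 5656 remaining genes matched the R64 reference table, and the brightest probe set represented a gene. Adding an offset of 2.7 (the 10th percentile of values) before log2 understates changes of dim genes. The 1131 genes below the 20th percentile of mean log2 value were left out.

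Testing used limma 3.58.1 (R 4.3.3, lmFit, eBayes with trend), by group only and with the replicate number as a block. The labels number replicates 1 to 3 in both groups, and these numbers were taken to pair the arrays. Deviations of same-numbered arrays from their group means correlated across genes (r = 0.52, 0.59 and 0.86). The shift of replicate 3 enters each of these values. Crossed pairs of replicates 1 and 2 correlated as well (0.51 and 0.65), so the data do not tell these numbers apart. With the block 2 residual degrees of freedom remain per gene, and the shared variance prior adds 12.5. Levels of different probe sets were not compared. The number of arrays limits precision. The genes and lists were chosen with earlier results of these data known. Of each related list, genes that passed were named, or else the 2 with the smallest p, and some others after their values were seen. Alternatives changed scaling, offset, dim filter, variance prior, probe set choice, block and arrays. The fits were tested on simulated data.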

Additional observations from a re-analysis of the deposited data

How the results depend on the processing

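The mean differences of LIP2, PDX1, GCV1, GCV2 and GCV3 kept their sign under every alternative run, as did that of PDA1, from 0.02 to 0.18. LIP2 ranged from -1.003 without mutant array 3 to -0.42 without wild-type array 3, PDX1 from -0.87 to -0.40, GCV1 from 0.15 to 0.66, GCV2 from 0.33 to 0.44 and GCV3 from 0.18 to 0.34. The sign turned in 1 or more alternatives for LIP5, LAT1, LPD1 and PDB1. At the 40th percentile filter LIP2 and GCV1 were left out as dim.

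Genes called with the group only were 0 higher and 1 lower, with 113 at an unadjusted p under 0.05. With quantile normalization 1 was higher, and when single arrays were left out 0 to 1 were higher. The replicate block gave 40 higher and 63 lower, the block for replicate 3 gave 45 and 74, and replicates 1 and 2 alone gave 20 and 33. Within the replicate block, quantile normalization gave 86 and 95, median scaling 101 and 115, the smaller offset 42 and 67, the larger offset 40 and 63, and no dim filter 36 and 43. Without replicate 1, 2 and 3 in turn it gave 71, 12 and 8 higher and 136, 13 and 7 lower.

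Of the 10 genes, 0 were called with the group only. With the replicate block, 2 were lower (LIP2 and PDX1), also with the block for replicate 3, quantile normalization, median scaling, either offset and no dim filter, but 0 within replicates 1 and 2 alone. With quantile normalization or median scaling within the block 1 was higher, GCV2. Leaving out pairs gave 0 to 3 lower, the third being LAT1. Of the related genes, the block gave 0 higher and 1 lower (ISA1), as did the block for replicate 3 and either offset. Replicates 1 and 2 alone gave 1 lower (HAP4), quantile normalization within the block 2 lower (ISA1 and HAP4), median scaling 1 higher (PDC5) and 3 lower (ISA1, HAP4 and KGD4), and no dim filter 1 higher (MPC3) and 0 lower, ISA1 being lost. Leaving out pairs gave 0 to 1 higher and 0 to 2 lower. Signs under the alternatives were followed only for the related genes that passed or had the 2 smallest p of their list. Among these, when single arrays were left out, signs turned for MCT1 (-0.54 to 0.15), PTC5 (-0.353 to 0.00636) and MPC1 (-0.565 to 0.0151). The signs of the other related genes were not followed. The cause was not tested.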
